A study of Homo sapiens with 4 samples.

Results

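TXNIP, the arrestin-domain genes ARRDC1, ARRDC2, ARRDC3 and ARRDC4, and the factors MLX, MLXIP and MLXIPL were followed in K562 cells with and without hemin. These 8 genes, of 61498 in the files, were chosen by name after TXNIP and ARRDC4 had been seen among the smallest p-values for lower expression in the same contrast. The change of the 8 genes after hemin is therefore given as a description with no test. Each symbol matched 1 gene ID.

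K562 is an established human erythroleukaemia line, and hemin is an iron porphyrin used to drive it toward the erythroid state. Poly(A) RNA was sequenced from 2 untreated libraries and from 2 libraries of cells kept with 50 µM hemin for 108 h. Both conditions shared the same serum-supplemented medium. The time in culture is not given for the untreated libraries, so an effect of it cannot be told apart from that of hemin. The labels do not say whether the 2 libraries of a condition came from separate cultures, so the tests measure only the spread between these libraries, which may be technical. The expected counts, which are RSEM's estimates of the reads belonging to each gene, summed to 7455447 to 8241534 per library. Where a gene has a count of 0, up to 3 counts remain possible from counting error alone, which is 0.364 to 0.402 CPM (counts scaled to the library total). Markers of the erythroid lineage were all detected (17 of 17), and their summed level was 7024 and 7227 TPM (RSEM's transcript share, corrected for length and scaled to a common total) in untreated cells and 9155 and 8614 TPM after hemin. The 6 globin genes carried this difference, with 5780 and 5929 TPM before and 7839 and 7309 TPM after hemin, while the other 11 markers summed to 1244 and 1298 TPM before and 1315 and 1305 TPM after. Of the 17, edgeR called 6 (35.3%) higher and 1 (5.88%) lower at an adjusted p under 0.05, beside 7.00% and 7.14% of all tested genes. The 6 higher genes were HBZ, HBE1, HBA1, HBA2, LMO2 and TFRC. The globin genes HBG1 (edgeR adjusted p = 0.066) and HBG2 (edgeR adjusted p = 0.073) were not past the threshold. The lower one was ALAS2, the first enzyme of erythroid heme synthesis (log2 fold change -0.25, edgeR adjusted p = 0.025), a call lost without either untreated library or hemin replicate 2 (up to 0.147). Of 8 megakaryocyte markers 4 (PF4, PPBP, GP9 and VWF) had 0 counts in all libraries, and the 8 summed to 3.97 to 7.35 TPM. Lymphoid and monocyte markers summed to 209 to 236.9 TPM over 7 genes, of which 3 had at most 3 counts, and nearly all of that level was PTPRC.

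TXNIP and the ARRDC proteins are α-arrestins, adaptors with an arrestin fold whose short proline-tyrosine motifs bring ubiquitin ligases of the NEDD4 family to membrane proteins. TXNIP also binds thioredoxin, and it drives the internalisation of glucose transporters, so it restrains glucose uptake. ARRDC4 acts on glucose transporters as well. MLXIP (MondoA) and MLXIPL (ChREBP) are basic helix-loop-helix factors that sense phosphorylated sugars and bind DNA together with MLX. They bind a pair of E-box-like sequences named the carbohydrate response element, and TXNIP and ARRDC4 are textbook targets.

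Because this element links the 2 groups of genes, the promoters were searched for it. RefSeq windows of 250 bases before to 50 bases after a transcription start (GRCh38.p14) were at hand for all 8 genes, with 11 windows in all since TXNIP, ARRDC2 and ARRDC3 each have 2. Motifs were searched on both strands. The strict paired motif was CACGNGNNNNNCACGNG and the loose paired motif was CACNNGNNNNNCACNNG, which takes in every strict match. The single E-box was CACGTG and the CCAAT box, a common element of promoters, was CCAAT. The stretches below show the matches of the 4 genes with an E-box or a paired motif. Each runs from 10 bases before the first match to 10 bases after the last, 5′ to 3′ on the gene's own strand, with matches in capitals and the 5 bases inside a paired motif in lower case.
TXNIP, chr1:145996641-145996729, minus strand: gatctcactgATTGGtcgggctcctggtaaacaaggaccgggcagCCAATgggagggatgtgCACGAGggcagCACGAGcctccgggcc
ARRDC4, chr15:97960483-97960650, plus strand: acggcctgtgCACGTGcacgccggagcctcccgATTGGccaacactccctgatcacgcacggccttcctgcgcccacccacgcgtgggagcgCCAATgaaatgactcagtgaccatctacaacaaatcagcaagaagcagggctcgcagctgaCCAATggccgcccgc
MLX, chr17:42567024-42567065, plus strand: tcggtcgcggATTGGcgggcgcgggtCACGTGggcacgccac
MLXIPL, chr7:73624645-73624681, minus strand: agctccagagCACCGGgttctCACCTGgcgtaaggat

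The TXNIP window held the strict paired motif from -88 to -72, counted from the transcription start. Of all 35116 promoter windows 20, or 0.057%, held this motif, and TXNIP was the only one of the 8 genes among them. The loose form was in 345 windows, or 0.982%, and among the 8 genes in TXNIP and in MLXIPL, there from -149 to -133. A single E-box was found in ARRDC4 (-210 to -205) and MLX (-50 to -45), against 7.26% of all windows. The CCAAT box, present in 34.6% of windows, occurred 2 times in the TXNIP window and 3 times in that of ARRDC4. At least 2 were held by 10.8% of windows and at least 3 by 3.26%. ARRDC1, MLX and MLXIP had 1 CCAAT box each, as did 1 of the 2 windows of ARRDC2 and of ARRDC3. A match is a run of letters and not a shown site, and the lack of a match in ARRDC4 or MLXIP holds for these letters in this window only.

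**Figure D1:**
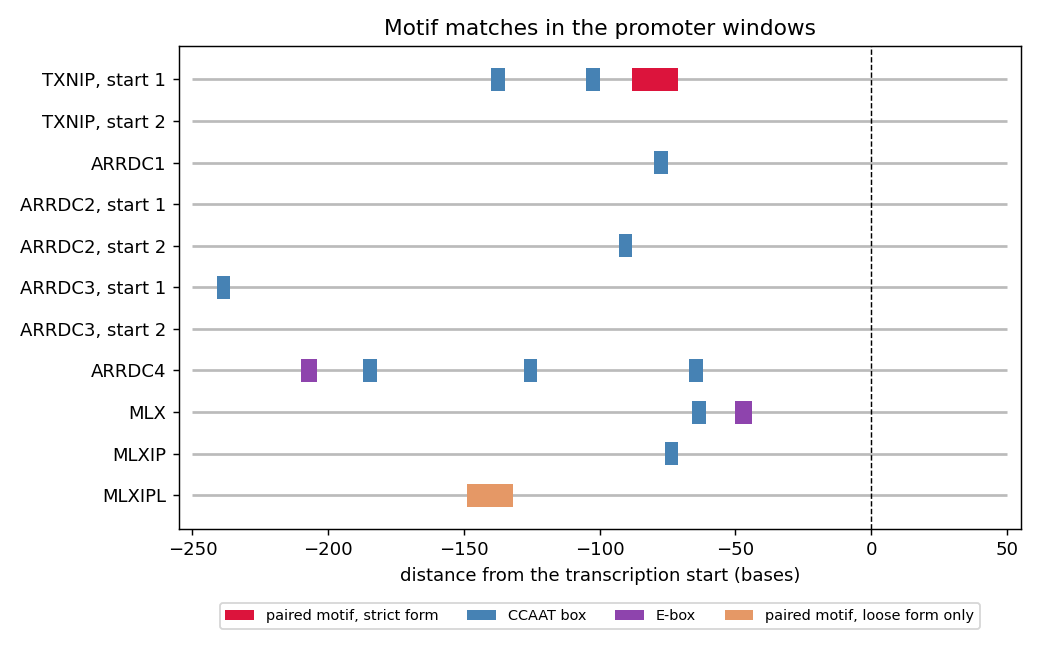
Motif matches in the 11 promoter windows, plotted by distance in bases from the transcription start (dashed line); each grey line is 1 window from 250 bases before to 50 bases after the start, and coloured blocks are matches on either strand. TXNIP start 1 holds the strict paired motif at -88 with 2 CCAAT boxes upstream of it, and ARRDC4 holds an E-box at -210 and 3 CCAAT boxes.

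The other genes with the strict paired motif in a window were also read out. Of 20 such genes 16 were tested for expression, and 4 were lower and 1 higher after hemin at an adjusted p under 0.05 (quasi-likelihood test of edgeR, Benjamini-Hochberg adjusted over 14458 genes). Over all tested genes the shares were 7.14% lower and 7.00% higher. With so few calls, and with TXNIP chosen on this contrast, these counts are not a result about genes with the motif. TXNIP is itself 1 of the 4. The other genes, named after their values were seen, were GFPT1 (log2 fold change -0.48, edgeR adjusted p = 0.00043), which controls the entry of sugar into hexosamine synthesis, P4HA1 (-0.55, edgeR adjusted p = 0.0041), a collagen prolyl hydroxylase subunit, and RCN3 (-1.03, edgeR adjusted p = 0.0473), a calcium-binding protein of the secretory pathway. RAN, the GTPase of nuclear transport, was higher (0.26, edgeR adjusted p = 0.00998). RCN3 lost its call without untreated replicate 2 or hemin replicate 1, with an edgeR adjusted p of up to 0.271, and RAN lost its call without untreated replicate 1, at 0.0626.

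TXNIP (ENSG00000265972) lies on the minus strand of chromosome 1 from 145992435 to 145996579 (GRCh38). Its counts were 3750 and 3701 in untreated cells and 1997 and 2169 after hemin. On the TPM scale, which corrects for length, its level was 267.66 and 269.98 in untreated cells and 147.51 and 145.84 after hemin. Both hemin libraries were far below both untreated libraries, and the libraries within a condition were nearly level. The log2 fold change of the counts was -0.85 ± 0.042 (SE derived from edgeR's F statistic, n = 2 per condition). The level was 1.8 times as high in untreated cells. In bulk RNA, a smaller share of cells with the transcript and less transcript per cell cannot be told apart.

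ARRDC4 (ENSG00000140450; chromosome 15, 97960703 to 97973833, plus strand) had 1627 and 1612 counts in untreated cells and 793 and 844 after hemin. Its TPM were 72.23 and 74.2 in untreated cells and 36.58 and 35.44 after hemin. The groups did not overlap here either. The log2 fold change was -0.99 ± 0.049 (SE, n = 2 per condition), or 1.99-fold higher in untreated cells. The ratio of ARRDC4 to TXNIP, taken within each library on the CPM scale, was 0.434 and 0.436 before and 0.397 and 0.389 after hemin. ARRDC4 thus stood lower relative to TXNIP in both hemin libraries. RSEM's posterior SD of the count, its own measure of how unsure the division of shared reads is, was 0% of the count for both genes.

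The other 3 α-arrestins showed no such separation. ARRDC1 (ENSG00000197070; chromosome 9, 137605685 to 137615360, plus strand), which recruits budding machinery at the plasma membrane, was at 24.06 and 25.83 TPM in untreated cells and 22.74 and 24.76 TPM after hemin. Its log2 fold change of counts was 0.02 ± 0.095. The 2 conditions overlapped, with the highest and the lowest TPM of ARRDC1 in replicate 2 of the untreated and replicate 1 of the hemin-treated cells.

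ARRDC2 (ENSG00000105643; chromosome 19, 18001132 to 18014102, plus strand) had 154.8 and 121.64 counts in untreated cells and 138 and 154 after hemin. Its log2 fold change of 0.07 ± 0.12 was smaller than its SE. ARRDC3 (ENSG00000113369; chromosome 5, 91368631 to 91383317, minus strand), an adaptor in the sorting of membrane receptors, had 142 and 181.63 counts in untreated cells and 149.12 and 194.87 after hemin, a log2 fold change of 0.07 ± 0.15. In both genes the spread between the untreated libraries exceeded the difference between conditions. Between the untreated replicates ARRDC3 differed by 0.42 on the log2 scale, where counting error alone has an SE of 0.16, and ARRDC2 differed by -0.28 with an SE of 0.17.

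TXNIP was the most abundant of the 5 α-arrestins. It made up 68.7% and 69.4% of their summed TPM in untreated cells and 63.8% and 64.2% after hemin. The sum itself was 389.4 and 389.2 TPM in untreated cells and 231 and 227.1 TPM after hemin. The drop of the sum lay in TXNIP and ARRDC4, since ARRDC1, ARRDC2 and ARRDC3 together stood at 49.5 and 45 TPM before and 46.9 and 45.8 TPM after hemin, with overlapping conditions.

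**Figure D2:**
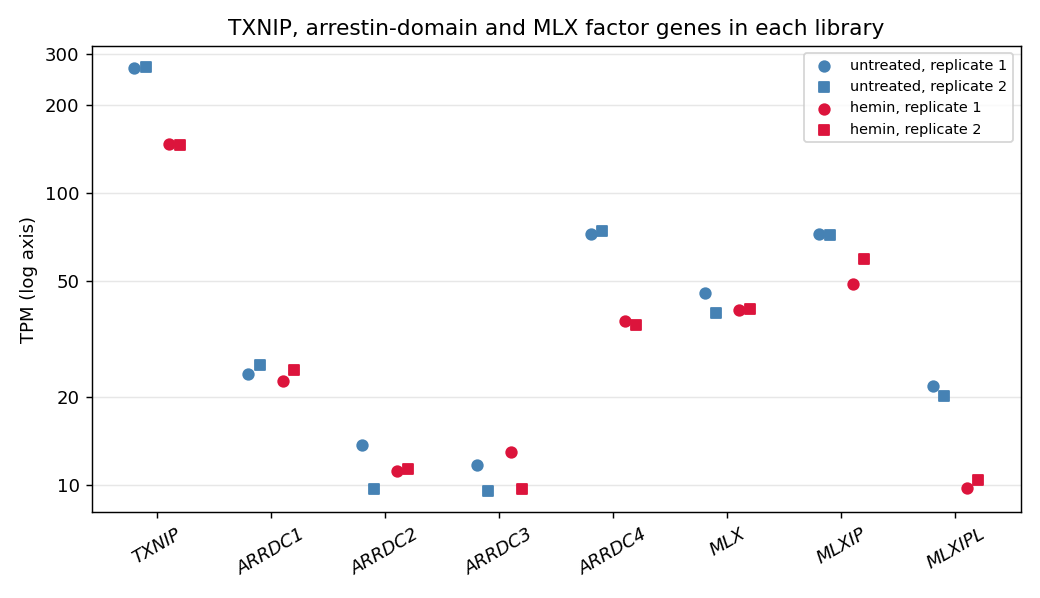
TPM of each gene on a log axis in the 2 untreated libraries (blue) and the 2 hemin libraries (red), with circles for replicate 1 and squares for replicate 2. TXNIP, ARRDC4, MLXIP and MLXIPL have both red points below both blue points, and the conditions overlap for ARRDC1, ARRDC2, ARRDC3 and MLX.

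Among the MLX factors, MLX (ENSG00000108788; chromosome 17, 42567072 to 42573239, plus strand) is the shared dimer partner. It had 493.65 and 435.01 counts in untreated cells and 448.27 and 471.92 after hemin, and a log2 fold change of -0.02 ± 0.068. The hemin counts lay between the 2 untreated counts. In TPM it stood at 42.19 ± 4.77 in untreated and 39.9 ± 0.339 in hemin-treated cells (SD, n = 2).

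MLXIP (ENSG00000175727; chromosome 12, 122078756 to 122147344, plus strand) was the more abundant of the sugar-sensing partners. Its counts were 2331 and 2092.99 in untreated cells and 1753.99 and 1931 after hemin. Scaled to CPM, these were 294.7 and 279.5 against 236.5 and 239.3, so both hemin libraries were lower. The log2 fold change was -0.27 ± 0.044, a 1.21-fold difference that is small beside that of TXNIP or ARRDC4.

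MLXIPL (ENSG00000009950; chromosome 7, 73593194 to 73624543, minus strand) had 234 and 194 counts in untreated cells and 109 and 145 after hemin. The groups did not overlap, but the hemin libraries differed from each other by 0.28 on the log2 scale, with a counting SE of 0.18. The log2 fold change was -0.76 ± 0.13, or 1.69-fold higher in untreated cells. It was -0.62 without hemin replicate 1 and -0.92 without hemin replicate 2, so the size of this difference depended on which hemin library was kept. MLXIP exceeded MLXIPL 3.32 and 3.57 times in untreated cells and 4.99 and 5.71 times after hemin on the TPM scale.

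At an adjusted p under 0.05 by edgeR, 4 of the 8 genes were past the threshold as lower (TXNIP, ARRDC4, MLXIP and MLXIPL) and 0 as higher (also 0 by DESeq2 and limma), beside 7.14% and 7.00% of all tested genes. Since the genes were chosen with this contrast known, nothing is read from that share or from its repeats on the same 4 libraries. The log2 fold changes ranged over all fits from -0.89 to -0.81 for TXNIP, from -1.03 to -0.96 for ARRDC4, from -0.42 to -0.23 for MLXIP and from -1.04 to -0.62 for MLXIPL. For ARRDC1, ARRDC2, ARRDC3 and MLX the sign differed between fits, within -0.13 to 0.31.

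**Figure D3:**
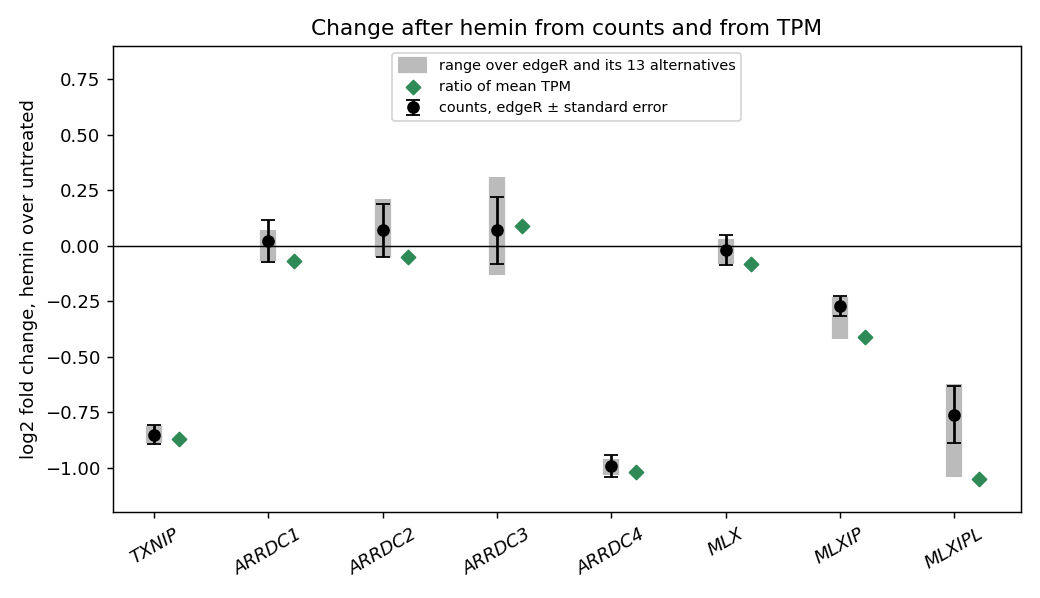
log2 fold change of hemin over untreated for each gene: black points are edgeR estimates from counts with their standard error, grey bars the range over edgeR and its 13 alternatives, and green diamonds the ratio of mean TPM. TXNIP and ARRDC4 lie at -0.85 and -0.99 with short bars, MLXIPL has the longest bar below 0, and 4 genes sit around 0.

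Ordered by TPM, the levels in untreated cells ran from TXNIP (mean 268.8) to ARRDC4 (73.22), MLXIP (72.23), MLX (42.19), ARRDC1 (24.94), MLXIPL (20.98), ARRDC2 (11.68) and ARRDC3 (10.65). The library ranges of ARRDC4 and MLXIP overlapped, as did those of ARRDC2 and ARRDC3, and all other neighbours were apart. After hemin ARRDC4 (mean 36.01 TPM) stood below MLXIP (54.26) and MLX (39.9), and MLXIPL (10.12) stood last, below ARRDC3 (11.36) and ARRDC2 (11.28). ARRDC3 overlapped both ARRDC2 and MLXIPL in those libraries.

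RSEM weights a gene's effective length by its estimated isoforms, so the length shows where TPM and counts part ways. For TXNIP it stayed within 2496.34 to 2532.49 bases and for ARRDC4 within 4013.56 to 4013.59 bases. For these 2 genes the log2 ratios of mean TPM, -0.87 and -1.02, were close to the log2 fold changes of the counts.

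MLXIPL had effective lengths of 1915.31 and 1775.33 bases in untreated cells and 2056.6 and 2342.95 bases after hemin. The ranges did not overlap, as in 29.9% of all tested genes, and the log2 ratio of mean lengths was 0.25. Its log2 ratio of mean TPM was -1.05, against a log2 fold change of -0.76 from counts. For MLXIP the TPM gave -0.41 and the counts -0.27, with a length of 6638.78 bases in hemin replicate 1 and 5360.91 to 5742.02 bases in the other libraries. Over all tested genes the median size of the log2 length ratio was 0.0541.

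In ARRDC3 the effective length followed the replicate number and not the condition. It was 2151.67 and 2119.29 bases in the libraries numbered 1 and 3515.77 and 3389.06 bases in those numbered 2. ARRDC3 counts were higher in the libraries numbered 2, while its TPM were lower there (9.54 and 9.69, against 11.76 and 13.03). The reason was not tested.

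**Figure D4:**
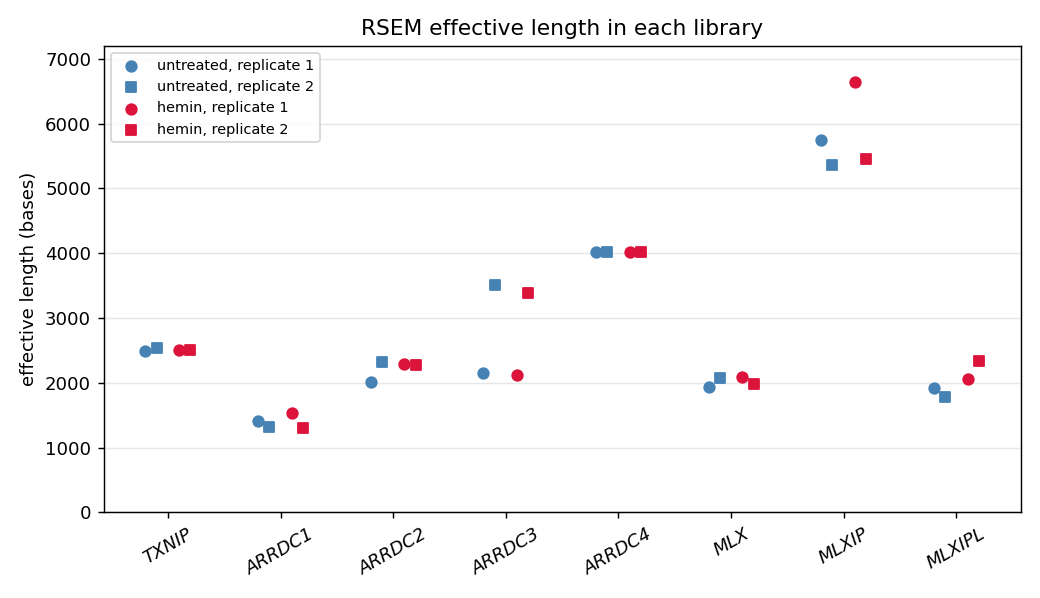
RSEM effective length in bases for each gene and library, with untreated libraries in blue, hemin libraries in red, circles for replicate 1 and squares for replicate 2. ARRDC3 splits by replicate number, MLXIPL is longer in both hemin libraries, and TXNIP and ARRDC4 stay level.

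The wider pathway was read out with 10 lists of 115 genes. Of these, 93 were tested, and 12 were higher and 12 lower at an edgeR adjusted p under 0.05, which is 12.9% each way beside 7.00% and 7.14% of all tested genes. The median log2 fold change over the 93 genes was 0.01, against -0.005 over all tested genes. The lists were chosen with earlier results of these data known, so nothing is read from their shares of calls. Adjusted p-values in the following paragraphs are from the same edgeR test, Benjamini-Hochberg adjusted over all tested genes, with n = 2 per condition.

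The list of sugar-responsive MLX targets, the longest with 23 genes, held the largest number of calls. Its genes were listed by name, and binding of the MLX factors to them in these cells was not measured. Of 18 tested genes 4 (22.2%) were higher and 7 (38.9%) lower, beside 7.00% and 7.14% of all tested genes. The median log2 fold change of the list was -0.11. As with the other lists, nothing is read from these shares. The largest called decreases were KHK, the fructokinase, and RGS16, a brake on G-protein signalling. KHK went from 32 and 34 counts to 11 and 14.58 (-1.35 ± 0.33, edgeR adjusted p = 0.026) and lost its call when any 1 library was left out, with an edgeR adjusted p of up to 0.129. RGS16 went from 42 and 65 counts to 27 and 21 (-1.16 ± 0.31, edgeR adjusted p = 0.038) and lost its call without untreated replicate 2 (edgeR adjusted p = 0.24) or hemin replicate 2 (0.0996). Both genes were read by few counts. The decreases with more counts behind them were the transcription factor KLF10, the glutathione-degrading enzyme CHAC1 and the clock-linked repressor BHLHE40. KLF10 and BHLHE40 were named after their values were seen. CHAC1 was named because its profile over these same libraries lay nearest to that of TXNIP. Its fall follows from that choice, so its adjusted p and its calls are no test. KLF10 had 395 and 392 counts in untreated cells and 183 and 220 after hemin (-0.97 ± 0.085, edgeR adjusted p = 0.00027). CHAC1 changed by -0.83 ± 0.088 (edgeR adjusted p = 0.00067) and BHLHE40 by -0.29 ± 0.043 (edgeR adjusted p = 0.0034). Over the alternatives KLF10 ranged from -1.05 to -0.9, CHAC1 from -0.87 to -0.82 and BHLHE40 from -0.36 to -0.25. Limma on TPM called CHAC1 but not KLF10 or BHLHE40.

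The 4 higher genes of that list, of which SCD and ACACA were named after their values were seen, all make or modify fatty acids. ELOVL6, which elongates them, went from 898.22 and 863.32 counts to 1111.81 and 1176.53 (0.37 ± 0.048, edgeR adjusted p = 0.0016). FASN, fatty acid synthase, went from 8191 and 7787 counts to 9609 and 10346 (0.31 ± 0.036, edgeR adjusted p = 0.00091). The desaturase SCD rose by 0.31 and the carboxylase ACACA by 0.27. All 4 were called with any 1 library left out, and none of them by limma on TPM. Without untreated replicate 1, without untreated replicate 2 or without hemin replicate 2, 4 list genes in place of 7 were called lower, and DESeq2 called 3. The 2 remaining decreases were PFKFB4, a regulator of glycolysis (-0.69, edgeR adjusted p = 0.028), and TKFC, a kinase of fructose breakdown (-0.44, edgeR adjusted p = 0.025). PFKFB4 lost its call without untreated replicate 1, untreated replicate 2 or hemin replicate 2 (edgeR adjusted p of up to 0.141), and TKFC without untreated replicate 1 (0.148). Of the list, 19 genes had a promoter window, of which 0 held the strict paired motif, 1 the loose form and 6 an E-box. The window of CHAC1 held none of these motifs. A gene was counted if any of its windows held the motif, so these counts cannot be set against the shares of windows. FASN, GPD1, KHK and KLF10 had no window at hand.

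**Figure D5:**
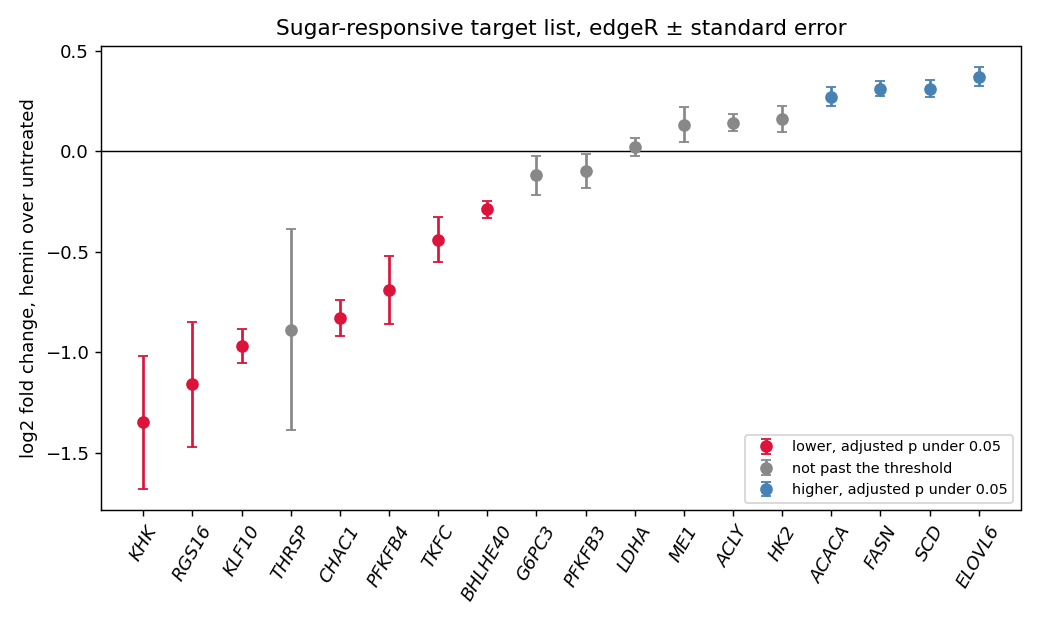
log2 fold change of hemin over untreated for the 18 tested genes of the sugar-responsive list, in order of the estimate. Error bars are the standard error derived from edgeR's F statistic. Red marks genes lower and blue genes higher at an adjusted p under 0.05, grey those not past it. KLF10, at -0.97, has a short error bar, while those of KHK and RGS16 are long, and the 4 blue genes lie between 0.27 and 0.37.

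Of the factors that share the E-box with the MLX group, 9 were tested. MYC and MGA (22.2%) were higher and 0 lower, beside 7.00% and 7.14% of all tested genes. MYC had 2729.58 and 2687 counts in untreated cells and 3412 and 3689 after hemin (0.38 ± 0.041, edgeR adjusted p = 0.00067). MGA, a large MAX partner, had 1306 and 1164 counts before and 1449 and 1592 after hemin (0.29 ± 0.047, edgeR adjusted p = 0.0047). Over the alternatives MYC ranged from 0.31 to 0.41 and MGA from 0.16 to 0.34, and limma on TPM called neither. MAX, the shared partner, was at 0.08 (edgeR adjusted p = 0.53). The repressors MXD1 (0.08, edgeR adjusted p = 0.6), MXD4 (-0.09, edgeR adjusted p = 0.73) and MNT (0.18, edgeR adjusted p = 0.23) can also pair with MLX, and none of the 3 was past the threshold. The sign of MXD4 turned without untreated replicate 1 (0.02) or hemin replicate 2 (0.08).

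In the thioredoxin and glutaredoxin list, 4 of 15 tested genes (26.7%) were higher and 0 lower by edgeR, beside 7.00% and 7.14% of all tested genes. As with the other lists, nothing is read from these shares. There was 1 lower at an unadjusted p under 0.05 and 0 lower by DESeq2 or limma. With no count filter, the strict filter or posterior mean counts, edgeR called 5 higher and 1 lower. Without untreated replicate 1, 1 gene was higher. TXN, the thioredoxin that TXNIP binds, was at 0.09 (edgeR adjusted p = 0.33), with 817.66 and 759.86 counts before and 833 and 852.93 after hemin. TXNRD1, the reductase that recharges thioredoxin, had 908 and 921 counts before and 1081 and 1143 after hemin (0.27 ± 0.053, edgeR adjusted p = 0.01). It lost its call without untreated replicate 1, at an edgeR adjusted p of 0.0658. TXNL1, a thioredoxin-like protein, rose by 0.35 (edgeR adjusted p = 0.0042), with a range of 0.31 to 0.39 over the alternatives. Limma on TPM did not call it. The ribonucleotide reductase subunits RRM1 (0.22, edgeR adjusted p = 0.016) and RRM2 (0.25, edgeR adjusted p = 0.022) were less stable. RRM1 lost its call without untreated replicate 1 (0.0704), untreated replicate 2 (0.0638) or hemin replicate 2 (0.0633), and RRM2 without untreated replicate 1 (0.123) or hemin replicate 1 (0.0541). On the TPM scales limma turned the sign of RRM2, at -0.07 and -0.08.

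The NEDD4-family ubiquitin ligases, the enzymes that α-arrestins recruit, were 8 tested genes, of which 1 (12.5%) was higher, 2 (25%) were lower and 5 were not past the threshold, beside 7.00% and 7.14% of all tested genes. HECW2 went from 3273.59 and 2860.06 counts to 1805 and 2056 (-0.68 ± 0.051, edgeR adjusted p = 0.00014) and was called under all 13 alternatives. WWP2 went from 356 and 305 counts to 443 and 477 (0.47 ± 0.075, edgeR adjusted p = 0.0046). Its log2 fold change ranged from 0.4 to 0.54 over the alternatives, and limma on TPM did not call it. SMURF2 was at -0.45 (edgeR adjusted p = 0.035), a call lost without untreated replicate 1, untreated replicate 2 or hemin replicate 2, with an edgeR adjusted p of up to 0.146. ITCH, which ubiquitinates TXNIP, was at 0.08 (edgeR adjusted p = 0.5) and NEDD4L at -0.06 (edgeR adjusted p = 0.48), so neither was past the threshold among the 8 tested.

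Among 6 tested relatives with an arrestin fold, VPS26A, a retromer subunit, was higher by 0.25 (edgeR adjusted p = 0.017), a call lost without untreated replicate 1 (0.0915), untreated replicate 2 (0.0508) or hemin replicate 2 (0.0709). The β-arrestins ARRB1 (-0.16, edgeR adjusted p = 0.086) and ARRB2 (-0.19, edgeR adjusted p = 0.24) were not past the threshold, although ARRB1 passed it without hemin replicate 2 (edgeR adjusted p = 0.0408). ARRDC5 had 0 counts in all 4 libraries. Of 13 tested genes for membrane budding and sorting, VPS28 alone was called, at -0.23 (edgeR adjusted p = 0.031), and leaving out any 1 library ended the call, with an edgeR adjusted p of up to 0.115. TSG101, which ARRDC1 recruits, was at 0.05 (edgeR adjusted p = 0.67).

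Glucose transporters and the enzymes that first use glucose were the list nearest to the known action of TXNIP. Of 12 tested, 0 were higher and 0 lower by edgeR, beside 7.00% and 7.14% of all tested genes. There were 1 higher and 2 lower at an unadjusted p under 0.05. DESeq2 and limma called 0 as well. With no count filter, the strict filter, posterior mean counts or without hemin replicate 2, edgeR called 1 lower. SLC2A1, the GLUT1 transporter, had 1429.69 and 1355.9 counts in untreated cells and 1285.96 and 1356 after hemin (-0.08 ± 0.044, edgeR adjusted p = 0.24). HK1, the hexokinase with the most counts, was at -0.06 (edgeR adjusted p = 0.41). SLC2A12, named after its values were seen, had the largest change of the 12 tested (-1.81 ± 0.56, edgeR adjusted p = 0.059). It was not past the threshold and was read by few counts, 48.61 and 27.84 before and 3.3 and 18.91 after hemin. Transcript levels carry no measure of where in the cell a transporter protein sits.

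Of the energy sensor AMPK, whose kinase phosphorylates TXNIP, 5 subunits were tested. PRKAB2, a β subunit, fell by 0.42 on the log2 scale (edgeR adjusted p = 0.0067). It had 506 and 452 counts before and 331 and 389 after hemin. Over the alternatives its log2 fold change ranged from -0.48 to -0.36, and limma on TPM did not call it. The catalytic subunit PRKAA1 was at 0.09 (edgeR adjusted p = 0.4). Of 6 tested cargo and signalling partners, DDIT4, a stress-induced inhibitor of mTOR that has been described to bind TXNIP, went from 2686 and 2706 counts to 1723 and 1843 (-0.61 ± 0.046, edgeR adjusted p = 0.00014) and was called under all 13 alternatives. NLRP3, the inflammasome sensor linked to TXNIP in other cells, had 0 counts in every library, and of the 4 inflammasome genes listed 1 was tested (PYCARD, 0.43, edgeR adjusted p = 0.35).

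The genes whose profile over the 4 libraries lay nearest to TXNIP, among 6827 with a mean count of at least 200, were CHAC1 (distance 0.0383), FN1 (0.0411), HSPA5 (0.0519), REEP6 (0.0686) and CLSTN3 (0.0717). The distance is Euclidean on centred log2 CPM. FN1 encodes fibronectin and HSPA5 the main chaperone of the endoplasmic reticulum. Nearest to ARRDC4 were CAPRIN2 (0.0698), FCGR2A (0.0805), PTK2B (0.086), ARG2 (0.109) and CLSTN3 (0.122), so CLSTN3 was on both lists. With 4 libraries in 2 conditions, these lists hold genes whose fall after hemin was of nearly the same size, such as HSPA5 at a log2 fold change of -0.80 and PTK2B at -1.01.

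Genes within 100 kb of the 8 genes were also examined. Of 75 with a count, 44 were tested, and 4 (9.09%) were higher and 1 (2.27%) lower at an edgeR adjusted p under 0.05, beside 7.00% and 7.14% of all tested genes. With so few calls, these shares are not a result about the neighbours. RBM8A, 64757 bases from TXNIP, was at 0.23 (edgeR adjusted p = 0.031), against the direction of TXNIP. Near MLX, ATP6V0A1 was at 0.23 (edgeR adjusted p = 0.012) and PLEKHH3 at -0.62 (edgeR adjusted p = 0.0045). Near MLXIPL, BAZ1B was at 0.23 (edgeR adjusted p = 0.017) and BCL7B at 0.45 (edgeR adjusted p = 0.027), also against its direction. RBM8A lost its call without untreated replicate 1 or hemin replicate 2 (edgeR adjusted p of up to 0.165), ATP6V0A1 without untreated replicate 2 (0.0669), BAZ1B without either untreated library or hemin replicate 2 (up to 0.085) and BCL7B without the replicate 2 of either condition (up to 0.136). PLEKHH3 ranged from -0.87 to -0.57 over the alternatives, and limma on TPM did not call it. Near ARRDC4 1 gene was tested, and it was not past the threshold.

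Some of the 8 genes share their span with others. ARRDC1-AS1, an antisense RNA, had 190 and 167 counts in untreated cells and 194 and 221.85 after hemin, where ARRDC1 itself had 184 to 192.2 per library, with a log2 fold change of 0.21 (edgeR adjusted p = 0.18). ARRDC3-AS1 had 18.37 to 26.88 counts per library (0.29, edgeR adjusted p = 0.62), and PSMC3IP, on the strand opposite to MLX, had 62.73 to 89.31 (-0.26, edgeR adjusted p = 0.36). ENSG00000283411 within the ARRDC1 span, ENSG00000279172 within that of ARRDC2 and ENSG00000274080 within that of MLXIPL were not tested, with at most 10 counts in a library. The use of strand in the gene counts is not given in the sources used here, so reads of a gene and its antisense partner may not be told apart. TXNIP, ARRDC4 and MLXIP had no overlapping gene with a count.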

How the data were processed

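Poly(A) RNA of 4 K562 libraries was sequenced with reads of 50 bases. According to the submitters' processing notes, Trimmomatic 0.39, STAR 2.7.5c and RSEM 1.3.1 were used with GRCh38; the annotation was Ensembl 106. The deposited expected counts and posterior mean counts are RSEM's estimated counts of reads per gene, not normalized. The authors' TPM divide each gene's reads by its effective length and share them out over a common total. The deposited posterior standard deviation of the count is used here as a score of how surely shared reads were divided. Lengths and effective lengths are deposited in bases. FPKM was not used.

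Groups were taken from the labels. Expected counts were rounded, filtered with filterByExpr (14458 of 61498 genes kept), normalised with TMM factors and tested in R 4.3.3 with edgeR 4.0.16 (quasi-likelihood test, condition as the only term, Benjamini-Hochberg adjustment, threshold 0.05). The SE of a log2 fold change is its size divided by the square root of edgeR's quasi-likelihood F statistic. It rests on dispersions shared across genes, not on the 2 libraries per condition alone. The methods of the study name DESeq2, which was run as an alternative (1.42.0). The other alternatives were RLE or library-size scaling, no filter, a filter of 20 counts, a replicate block, limma 3.58.1 on log2 TPM with a pseudocount of 1 or 0.1, the posterior mean counts and each library left out. The scripts were tested on simulated data.

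The 8 genes and the lists were chosen with earlier results of these data known. All 8 genes are named, and of each list every called gene where there were 4 or fewer and otherwise the 2 largest increases and decreases. TXN, TXNRD1, ITCH, NEDD4L, TSG101, MYC, MAX, MXD1, MXD4, MNT, SLC2A1, HK1, PRKAA1, ARRB1 and ARRB2 are always named, as are the 5 genes nearest to TXNIP and to ARRDC4 on log2 CPM (prior count 2), and neighbours within 100 kb that were called or overlap. Coordinates are from GENCODE 44, which held 99.84% of the gene IDs.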

Additional observations from a re-analysis of the deposited data

How the results depend on the processing

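For the 8 genes, which were chosen on this contrast, the count past the threshold as lower was 4, and 2 by limma with a pseudocount of either 1 or 0.1. Nothing is read from these counts. Over all genes, 1012 were higher and 1033 lower. DESeq2 gave 589 and 479, limma 14 and 33 with a pseudocount of 1 and 15 and 34 with 0.1, and leaving out a library 469 to 934 and 512 to 884, lowest without untreated replicate 1. Library size only gave 729 higher and 1358 lower. For the pathway lists (12 and 12), limma called 0 higher (9 at an unadjusted p) and 3 lower with either pseudocount, DESeq2 6 lower, and leaving out a library 8 to 12 higher and 7 to 10 lower. For genes near the 8 (4 and 1, alternatives added after the data were seen), limma called 0 higher (3 at an unadjusted p) and 0 lower (4 and 3), library size only, either other filter and posterior mean counts 2 lower, and leaving out a library 2 to 5 higher and 1 lower. Directions turned for RRM2 (-0.07 and -0.08), NEDD4L (0.12 and 0.13) and TSG101 (-0.09 and -0.09) under limma, and for MXD4 without untreated replicate 1 (0.02) or hemin replicate 2 (0.08), its range over the omissions being -0.27 to 0.08. The cause was not tested. Over single genes 717 alternative values kept their side of the threshold or stayed within the replicate spread, and 119 lost a call.

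Replicate numbers did not pair the libraries (correlation of deviations -0.0307 over 6831 genes). A replicate block gave 855 genes higher and 886 lower, 4 of the 8 genes lower, 12 and 10 pathway genes, and 4 and 1 near genes. With a library left out, the lone library of a condition was taken to vary as much as the remaining libraries. Depth limits the genes with few counts most, such as KHK, which had 11 counts in hemin replicate 1.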
